A study of Trametes pubescens and Hermanssonia centrifuga with 16 samples.

Results

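The response of the white-rot fungus Phlebia centrifuga to culture temperature was measured on spruce wood by comparing mycelium grown at 25 °C with mycelium grown at 15 °C. The members are the 4 libraries, of 16 in the series, whose titles name P. centrifuga on spruce, 2 at 25 °C and 2 at 15 °C. All came from strain FBCC195, a single isolate, precultured in malt extract liquid at 15 °C for 21 days. The solid cultures then held 2 g (dry weight) of Norway spruce sticks at 60% moisture and were harvested after 21 days. The titles and treatment labels give 15 or 25 °C, while the protocol text names only 25 °C for the solid cultures, so libraries were grouped by title. Nothing in the labels ties the libraries of a temperature to separate cultures, and a p-value here may reflect only technical spread between libraries. The 8 libraries of the other species were not used. The 4 P. centrifuga libraries from wheat straw at the same temperatures served to estimate the spread and for 1 test between substrates. They also entered the filter on low counts, the scaling and the mean CPM by which genes were split into quartiles.

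P. centrifuga is a fungus of fallen spruce in old boreal forests. White-rot fungi secrete peroxidases that break up lignin, the aromatic polymer that stiffens wood, together with enzymes that cut cellulose and the hemicelluloses into sugars. In fungi, warmth and cold are in general known to alter membrane lipids, protein folding helpers and the rate of growth. The deposited files identify each gene model by scaffold and by its number there, and do not pair the models with gene names. No function is therefore given for any gene model, and at most 2 identifiers are named in each direction.

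The 4 spruce libraries held between 9691925 and 12420388 counts, and between 11944 and 12016 of 13785 gene models had at least 1 count. After removal of genes with too few counts, 11658 genes were tested, and these held 99.99% of each library's counts. Gene lengths are not in the files, so a level here is a share of counts and not of transcripts. Levels are given as CPM, in which TMM scaling (the trimmed mean of M-values) puts all libraries on one total, and fold changes are thus relative to the bulk of genes. An overall change in the amount of mycelium or in the RNA per hypha cannot be seen in such values.

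At 25 °C, 673 genes were higher and 451 lower than at 15 °C on spruce, at an adjusted p below 0.05 in edgeR's quasi-likelihood test. These are 5.77% and 3.87% of the tested genes, and 9.64% together. Most of the called changes were moderate in size. Of the genes that rose, 399 (59.3%) changed by less than 2-fold and 34 by at least 4-fold, with quartiles of the log2 fold change at 0.71 and 1.26. Of the genes that fell, 312 (69.2%) changed by less than 2-fold and 22 by at least 4-fold, with quartiles at -1.11 and -0.60. At the far end of the range, 8 genes rose and 4 fell by at least 8-fold in the fit. Of these 8, 2 had 0 CPM in the first library at 15 °C, and about 1 CPM at 25 °C, so their fitted fold changes rest on few counts. Of these 4, 2 stayed under 4 CPM in each library, and the other 2 had libraries at 15 °C that were 4.37 and 5.15 times apart. The 95% interval of the log2 fold change lay wholly beyond 2-fold for 93 genes that rose and 39 that fell. No called gene went from a mean under 1 CPM at one temperature to at least 10 CPM at the other. Across all gene models, 0 had no count at 15 °C and 10 or more at 25 °C, and 1 had none at 25 °C and 10 or more at 15 °C.

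**Figure D1:**
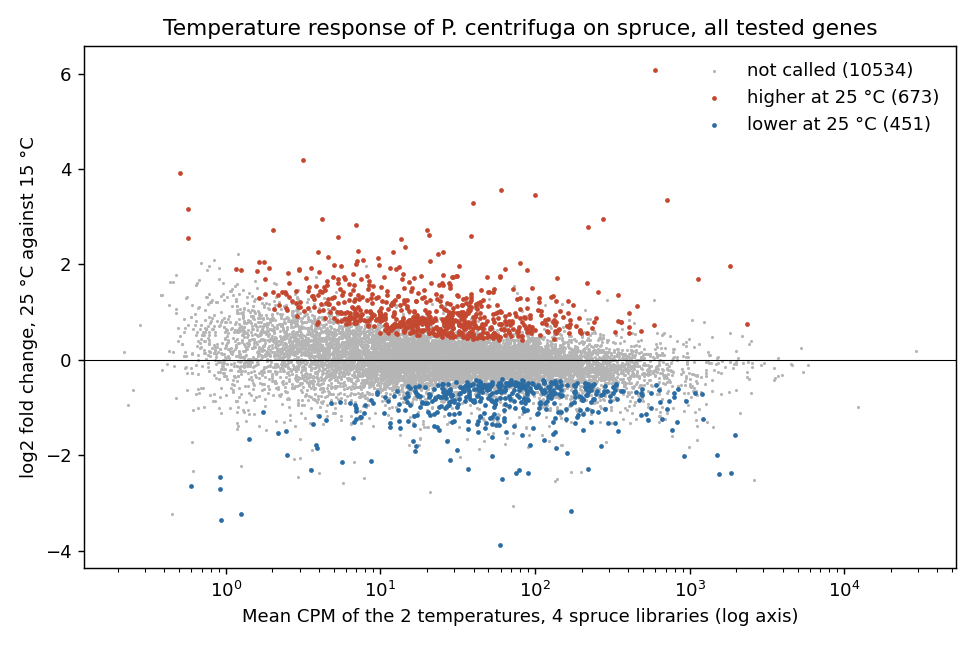
Each point is 1 of the 11658 tested genes, with the mean CPM of the spruce libraries on a log axis and the log2 fold change of 25 °C against 15 °C on the vertical axis. The 673 red points rose and the 451 blue points fell; grey points were not called, and the largest fitted changes are 6.08 and -3.87, the latter from libraries at 41.2 and 180 CPM at 15 °C.

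The 4 genes named are the 2 in each direction whose mean level moved by the most CPM among called genes of that direction. Libraries that do not overlap between the temperatures were a condition for naming, so that trait is no separate support. Gene 9539 (jgi|Phlcen1|9539|scaffold_2824.2, model 2 of scaffold 2824) had 746 and 737 CPM in the libraries at 15 °C and 2724 and 3072 CPM in those at 25 °C. The lower library at 25 °C stood 3.65 times above the higher library at 15 °C, so the temperatures did not overlap. This was a rise from 741 ± 6.7 CPM (SD, n = 2) to 2898 ± 246 CPM (n = 2). Its log2 fold change was 1.97 ± 0.20 (SE), with an edgeR adjusted p of 0.00358. Gene 8208 (jgi|Phlcen1|8208|scaffold_2661.8, model 8 of scaffold 2661) fell, from 2644 and 2554 CPM at 15 °C to 457 and 525 CPM at 25 °C. Its libraries were again far apart, by 4.86 times between the nearest values, while those of a temperature lay close together. The log2 fold change was -2.40 ± 0.17 (SE; edgeR adjusted p = 0.00115). The calls of both genes held in each of the 14 other settings tried.

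The other gene named in each direction was less firmly placed. Gene 11012 (jgi|Phlcen1|11012|scaffold_395.2, model 2 of scaffold 395) had 1702 and 1782 CPM at 15 °C and 2664 and 3231 CPM at 25 °C. The temperatures did not overlap, and the nearest values differed by 1.495 times. The log2 fold change was 0.76 ± 0.17 (SE; edgeR adjusted p = 0.0334). The call was lost in the fit of the 4 spruce libraries alone (edgeR adjusted p = 0.128), with the replicate number as a block (adjusted p = 0.0533), on leaving out spruce library 1 at 15 °C (0.065), spruce library 1 or 2 at 25 °C (0.0786 and 0.215) or straw library 1 or 2 at 15 °C (0.0729 and 0.0715). Over all settings, DESeq2 included, its adjusted p lay between 0.00182 and 0.215.

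Gene 12640 (jgi|Phlcen1|12640|scaffold_806.30, model 30 of scaffold 806) had 1347 and 4819 CPM at 15 °C and 539 and 650 CPM at 25 °C. Both libraries at 15 °C were above both at 25 °C, but they differed from each other more than the first of them differed from the libraries at 25 °C. The log2 fold change was -2.37 ± 0.55 (SE; edgeR adjusted p = 0.0386). It was -3.04 without the first library at 15 °C (adjusted p = 0.00446) and -1.20 without the second (adjusted p = 0.042), so the size rests on which of them is used. The call was lost in the fit of the 4 spruce libraries alone (adjusted p = 0.115), on leaving out spruce library 1 or 2 at 25 °C (0.168 and 0.198) and on leaving out any single straw library (0.0602 to 0.0681). Over all settings, DESeq2 included, the adjusted p lay between 2.16e-05 and 0.198.

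**Figure D2:**
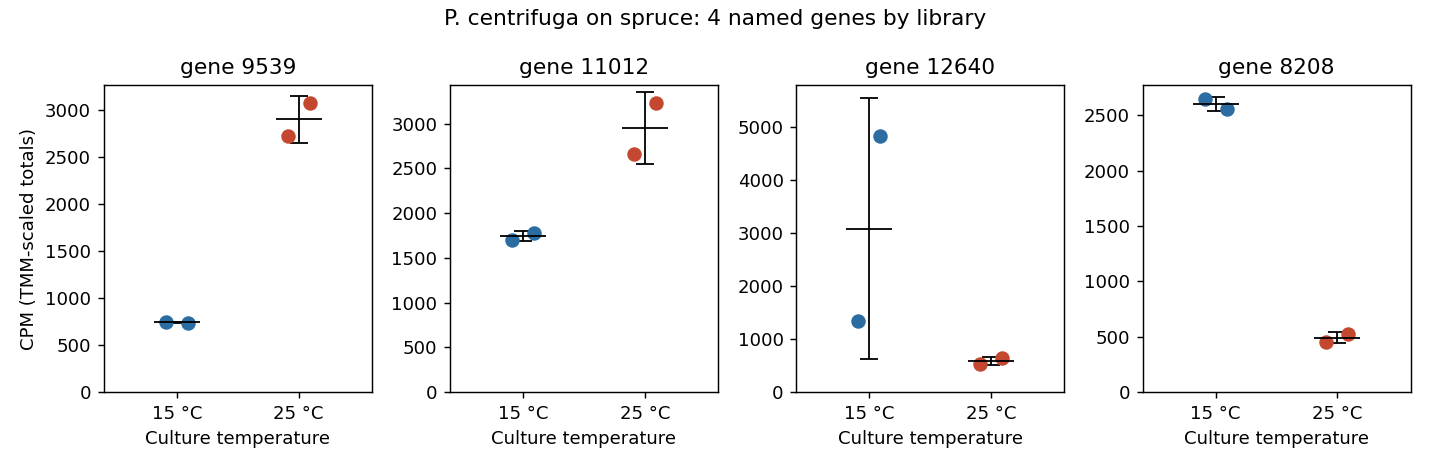
CPM of the 4 named genes in each spruce library (points, blue at 15 °C and red at 25 °C), with the mean and SD of 2 libraries in black and axes from 0. Genes 9539 and 8208 show tight pairs that are far apart, and the libraries of gene 12640 at 15 °C stand at 1347 and 4819 CPM.

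The genes that fell had higher levels than the genes that rose. The median gene that fell went from 77.0 CPM at 15 °C to 41.9 CPM at 25 °C, and the median gene that rose went from 14.7 to 29.0 CPM. A level of at least 1000 CPM at the higher temperature for that gene was reached by 5 genes that rose and 13 that fell. When the tested genes were split into 4 quartiles by mean CPM over all 8 P. centrifuga libraries, 160 genes rose and 34 fell in the lowest quartile (0.454 to 9.78 CPM). In the second quartile 218 rose and 81 fell, in the third 197 and 148, and in the highest (above 77.5 CPM) 98 and 188. Rises made up 82.5% of the calls in the lowest quartile and 34.3% in the highest. In the third quartile falls outnumbered rises with DESeq2 (189 rose and 220 fell) and with RLE scaling (185 and 190). They also did so on leaving out either spruce library at 15 °C, while rises outnumbered falls there in every other setting. In the highest quartile the majority depended on the setting, and rises outnumbered falls with library totals alone (198 and 117), on leaving out spruce library 1 or 2 at 25 °C (30 and 28, 16 and 7) and in the fit of the 4 spruce libraries alone (15 and 13). In the lowest quartile rises made up 69.4% to 92.0% of the calls in every setting. The median log2 fold change over all genes of a quartile, called or not, went from 0.20 in the lowest through 0.04 and -0.04 to -0.14 in the highest. The order of the quartiles was the same with libraries scaled by their totals alone, but the sign was not, since the medians were then 0.36, 0.21, 0.12 and 0.03. That scaling moved the median of all genes from 0 to 0.16 and turned the split of 673 against 451 into 1205 higher and 248 lower. DESeq2 called 634 higher and 762 lower.

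The share of counts held by the called genes of each direction shifted between the temperatures. By number, the genes that rose were 5.77% of the tested genes and those that fell were 3.87%. The genes that rose took 2.13% and 2.09% of all counts in the libraries at 15 °C and 4.69% and 5.06% at 25 °C. The genes that fell took 7.09% and 7.74% at 15 °C and 4.21% and 4.17% at 25 °C. These shares come from the values that made the calls and are a description of them. A few genes carried much of each shift: the 10 called genes with the largest rises in CPM summed to 4207 CPM at 15 °C and 12797 CPM at 25 °C, 35.6% of the whole rise of the 673 genes. The 10 with the largest falls summed to 19256 and 6230 CPM, 32.9% of the whole fall of the 451.

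**Figure D3:**
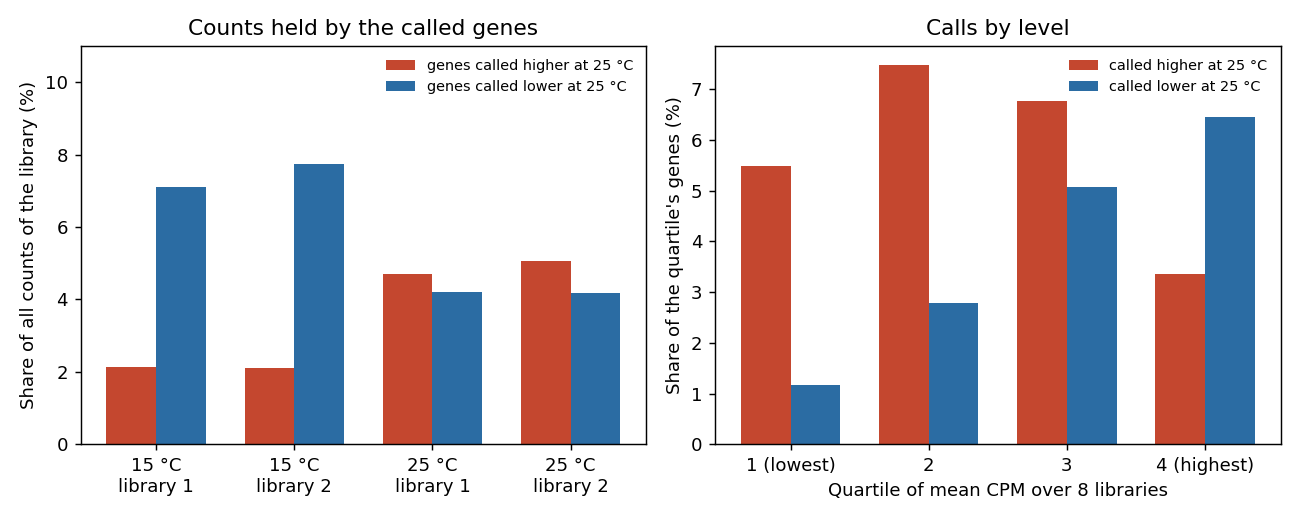
Left, the share of all counts of each spruce library held by the genes called higher (red) and lower (blue) at 25 °C. Right, the share of genes called in each direction in each quartile of mean CPM over 8 libraries; red bars exceed blue in the 3 lower quartiles and blue exceeds red in the highest, in the edgeR fit of 8 libraries with TMM scaling.

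The gene models with most counts were largely the same at both temperatures. Of the 10 with the highest mean CPM at 15 °C, 8 were also among the 10 highest at 25 °C, and none of these 12 genes was called. Over all tested genes 9.64% were called, so the lack of a call among 12 genes does not set them apart. The single highest was the same model at both, with 32338 and 22095 CPM at 15 °C and 31946 and 29714 CPM at 25 °C. Its libraries overlapped, and the log2 fold change was 0.18 ± 0.24 (SE; edgeR adjusted p = 0.66). Of the 100 highest, 72 were shared. Among the 100 highest at 15 °C, 9 fell and 1 rose at 25 °C, and among the 100 highest at 25 °C, 5 rose and 2 fell. Over all tested genes 5.77% rose and 3.87% fell. Each list was ranked by the level at 1 of the compared temperatures. That ranking favours falls in the list at 15 °C and rises in the list at 25 °C, so these counts only describe the lists.

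The intervals also give a range for the change of genes without a call. Each is for a single gene, without adjustment over genes, and like the p-values may reflect only technical spread between libraries. Among the 10534 genes not called, the 95% interval of the log2 fold change lay within 2-fold in either direction for 7910 (75.1%), and within 0.5 log2 units for 2732. For the other 2624 a change of 2-fold or more lay within the interval. Of the genes with a fitted change of at least 2-fold, 327 of 740 were not called, 141 of them higher and 186 lower at 25 °C, and in 55 of the 327 the libraries overlapped. In all, 3356 genes (28.8%) had an unadjusted p below 0.05. Libraries that do not overlap are a weak criterion here: this held for 6443 tested genes (55.3%), 3362 of them higher at 25 °C (28.8%) and 3081 lower (26.4%), and for all 1124 called genes.

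The libraries at 15 °C differed from each other more than those at 25 °C. The log2 ratio between the replicates had an SD across genes of 0.52 at 15 °C and 0.30 at 25 °C, and 698 genes (5.99%) differed by at least 2-fold between the replicates at 15 °C against 131 (1.12%) at 25 °C. Between a library at 15 °C and one at 25 °C the SD was 0.55 to 0.64, and 808 to 1156 genes differed by at least 2-fold. The pair of libraries at 15 °C was thus nearly as far apart as the nearest libraries of different temperatures. Among the 451 genes that fell, 12 differed by at least 2-fold between the replicates at 15 °C and 4 between those at 25 °C; among the 673 that rose, 11 and 0 did. The test estimates 1 spread per gene over all groups, and the number of calls followed the libraries in the fit. Leaving out spruce library 1 at 15 °C gave 1396 calls (614 higher, 782 lower), and leaving out library 2 gave 1548. Leaving out spruce library 1 or 2 at 25 °C gave 212 and 85. Leaving out 1 straw library gave 536 in either case at 15 °C and 714 and 716 at 25 °C, and a fit of the 4 spruce libraries alone called 115.

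**Figure D4:**
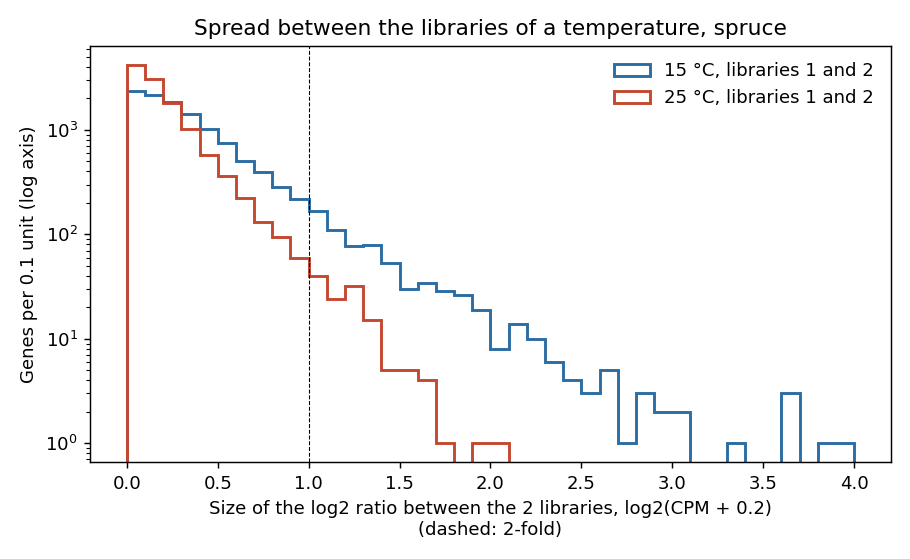
Number of genes (log axis) by the size of the log2 ratio between the 2 spruce libraries of a temperature, computed on log2(CPM + 0.2); ratios above 4 are in the last bin and the dashed line marks 2-fold. The blue line (15 °C) lies above the red line (25 °C) at the larger ratios, to the right of the dashed line.

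A smaller set of genes was called whichever library or tool was used. In edgeR with each of the 8 libraries left out in turn, 66 of the 673 genes that rose and 12 of the 451 that fell stayed called, and 58 and 12 did so in all 14 other settings. The 58 had a median log2 fold change of 1.78, with median levels of 13.4 CPM at 15 °C and 43.9 CPM at 25 °C. The 12 had a median of -1.44, with median levels of 84.1 and 31.2 CPM. The fold change was 2 or more for each of the 70. These sizes follow in part from the selection, since the settings with fewest calls keep genes with changes that are large for their standard error. The sign of the change was the same as in the fit of 8 libraries for all 1124 called genes in 13 of the 14 settings. In the fit of the spruce libraries alone the sign was the same for 1122 of them. This was largely fixed in advance and is no support for the calls. The spruce libraries of all 1124 genes did not overlap between temperatures, and each setting used the same spruce libraries or all but 1 of them.

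**Figure D5:**
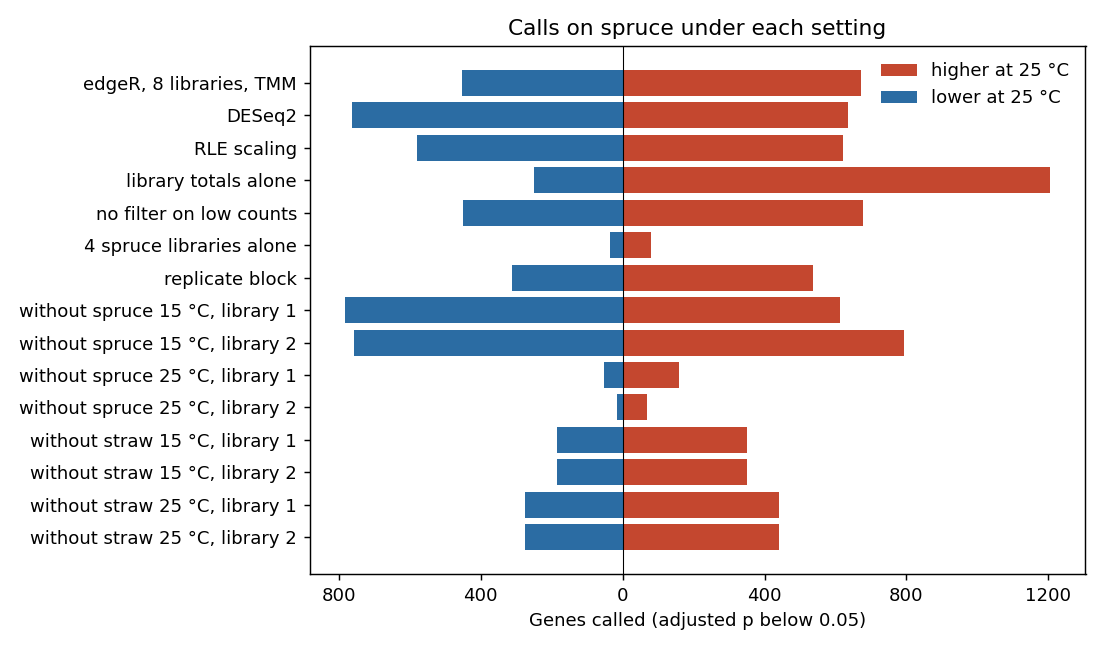
Number of genes called higher (red, to the right) and lower (blue, to the left) at 25 °C on spruce under each setting, at an adjusted p below 0.05. The bars are shortest where spruce library 2 at 25 °C is left out (70 and 15 genes) and in the fit of the 4 spruce libraries alone (80 and 35).

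Called genes often had a called gene of the same direction under the adjacent model number of the same scaffold. Of the 641 genes that rose and had a tested model with an adjacent number, 160 (25.0%) had one that also rose, and 21 had one that fell. Over all 11279 tested genes with an adjacent tested model, 9.68% had one that rose. Of the 442 such genes that fell, 103 (23.3%) had an adjacent model that fell, against 7.16% of all tested genes, and 21 had one that rose. There were 63 pairs, 10 runs of 3 and 1 run of 4 models with consecutive numbers that rose, and 42 pairs, 5 runs of 3 and 1 run of 4 that fell. Whether consecutive numbers are neighbours on the DNA, and whether they share reads, was not tested, since the files give neither positions nor the strand setting of the counting.

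A pair of scaffolds was chosen after their values were seen, one for the longest run that rose and the other for the highest fold change. On scaffold 895, 8 of the first 10 models rose at 25 °C, with log2 fold changes between 0.99 and 2.53. The highest of these, model 5, had 3.81 and 4.20 CPM at 15 °C and 26.4 and 19.9 CPM at 25 °C (log2 fold change 2.53 ± 0.25, SE; edgeR adjusted p = 0.00314). The models without a call among the first 10 were model 2, with a log2 fold change of 0.36 ± 0.14 (adjusted p = 0.147), and model 7, with 0.57 ± 0.16 (adjusted p = 0.0664). Of all 47 models of the scaffold, 10 rose and 1 fell, so most calls lay at its start. On scaffold 673, which has 8 models, model 5 had 122 and 134 CPM at 15 °C and 1402 and 1214 CPM at 25 °C. Model 6 had 14.9 and 20.0 CPM at 15 °C and 1405 and 955 CPM at 25 °C. The libraries at 25 °C thus stood at similar CPM in models 5 and 6, while those at 15 °C did not. Model 8 rose from 7.14 and 8.97 CPM to 35.1 and 32.0 CPM, and model 7 between them stayed under 2 CPM in each spruce library.

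Whether temperature acted differently on spruce and on wheat straw was tested over all genes, the one test that compared the substrates. The test called 10 genes (0.0858% of those tested, edgeR adjusted p below 0.05), none of them among the 4 named. In the same edgeR fit 2114 of the 11658 tested genes had an unadjusted p below 0.05. The count of calls depended strongly on the setting, from 0 with the replicate block to 414 with DESeq2. A p that misses the threshold does not show that a gene responded alike on both.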

How the data were processed

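RNA was sequenced from mycelium, 1 library per sample. The authors deposited raw counts per gene model; the submitters' processing notes name STAR 2.7.10a and Trimmomatic 0.36. The build, the annotation and the strand setting are not given in the labels or files used. The libraries of neither spruce group agreed within the sampling noise of counts (chi-square per degree of freedom 69.4 at 15 °C and 22.1 at 25 °C), and each was kept as its own library. Sampling noise leaves out the spread from library preparation, so these values cannot tell libraries of 1 culture from those of separate cultures. Counts of the 8 P. centrifuga libraries were filtered with filterByExpr, scaled by TMM and fitted in R 4.3.3 by edgeR 4.0.16 on group means, with 4 residual degrees of freedom and no replicate block. The contrast on spruce was tested with glmQLFTest and adjusted by Benjamini-Hochberg over 11658 genes. The standard error is the log2 fold change divided by the square root of F. Ratios between libraries used log2 CPM with a prior count of 2. Alternatives were DESeq2 1.42.0, RLE scaling, library totals, no filter, the spruce libraries alone, a replicate block and each library left out. Named genes were called, did not overlap between temperatures, reached 10 CPM and had the largest difference in mean CPM, 2 in each direction. The libraries, lists and rules were chosen with earlier results of these data known. Lists of enzyme and stress genes could not be tested, since no names are paired with the models.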

Additional observations from a re-analysis of the deposited data

How the results depend on the processing

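The count of 1124 genes called on spruce stayed within 1.5 times under DESeq2 (1396), RLE scaling (1201), library totals (1453), no filter (1127) and the replicate block (848), was 115 in the fit of the 4 spruce libraries alone, and ranged from 85 to 1548 with 1 library left out. The fit of the spruce libraries alone has 2 residual degrees of freedom in place of 4, and leaving out a library leaves its group with 1, assumed to vary like the other groups. The split was 622 higher and 579 lower with RLE scaling. The count of 10 genes in the test between substrates was 414 with DESeq2, 1 with RLE scaling, 19 with library totals and 0 with the replicate block (1988 genes at an unadjusted p below 0.05 in edgeR), and ranged from 0 to 192 with 1 library left out; the cause was not tested. No named gene changed sign in any setting, which was largely fixed in advance, since their libraries did not overlap between temperatures. Same-numbered spruce libraries deviated from their group means with a correlation of 0.264 across genes. For the other pairings of the P. centrifuga groups, which the block also spans, the correlation was of either sign, from -0.32 to 0.249. The labels give the numbers no meaning and each group has only 2 libraries, so whether the numbers mark a pairing cannot be told. The block kept 814 of the 1124 calls and lost that of gene 11012. Precision was lower for genes with few counts: the lowest quartile of mean CPM had a median standard error of 0.278 log2 units against 0.144 in the highest.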
